A study of Mus musculus with 48 samples.

Results

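The expression of 10 genes for secreted Wnt ligands and Wnt modulators was examined in the mouse thoracic aorta. They were taken by symbol from a table of 18782 genes: the secreted frizzled-related protein genes Sfrp1, Sfrp2 and Sfrp4, the related gene Frzb, the Wnt-binding inhibitor Wif1, the co-receptor inhibitor Dkk2, the R-spondins Rspo1 and Rspo2, and the ligands Wnt4 and Wnt11. All 10 passed the filter on low counts and were among 14431 genes tested. Bulk RNA was sequenced from 48 wild-type C57BL/6J mice, with 1 library per mouse. FeCon (n = 10) and MaCon (n = 10) were females and males that drank plain water, and the other 28 mice drank water with 0.4% β-aminopropionitrile (BAPN) for 28 days from 3 weeks of age. BAPN inhibits lysyl oxidase, on which the links between collagen and elastin fibres depend, and mice given it can develop aortic dissection or aneurysm. Treated survivors were then sorted by pathology into FeNonAD (n = 8) and MaNonAD (n = 4), without a detectable lesion, and FeAAD (n = 9) and MaAAD (n = 7), with one. NonAD and AAD are therefore outcomes after the same treatment, and mice that died of rupture are not in these groups.

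Wnt ligands are lipid-modified proteins that bind Frizzled receptors, either with LRP co-receptors, which stabilises β-catenin and lets it act with TCF/LEF factors in the nucleus, or with other co-receptors that act on cell polarity and movement. Secreted frizzled-related proteins, Frzb and Wif1 bind Wnts outside the cell and can keep them from their receptors, whereas Dickkopf proteins such as Dkk2 bind the LRP co-receptors. R-spondins bind LGR receptors and keep the ubiquitin ligases Znrf3 and Rnf43 from removing Frizzled from the cell surface. Wnt11 is best known for β-catenin-independent signalling, and Wnt4 and Rspo1 for their part in ovary development.

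Library totals lay between 13548003 and 17281262 counts, with a median of 15681333. The Y-linked gene Ddx3y went against the sex label in 0 libraries. No marker gene of smooth muscle was at 0 throughout any group, and the summed level of 8 such markers ranged from 11833 to 60211 CPM, a unit in which the counts of a gene are scaled to a common library size. The median sum was lower in AAD, at 21731 CPM in FeAAD against 43405 CPM in FeCon and at 20744 CPM in MaAAD against 41436 CPM in MaCon. In bulk RNA, fewer cells of a type and less RNA per cell cannot be told apart. FeNonAD8 was the highest FeNonAD library for 6 of the 10 genes, and FeAAD9, which had the lowest sum of adventitial fibroblast markers at 1181 CPM, was the lowest FeAAD library for 4.

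The genes lie on 8 chromosomes, with Sfrp2 and Dkk2 both on chromosome 3 and Rspo1 and Wnt4 both on chromosome 4. Promoters of 7 of the 10 were found in the RefSeq table for GRCm38.p6, with 2 start sites for Wnt11. Because Wnt signals through TCF/LEF factors, the 250 bases before each start were searched on both strands for the heptamer CTTTGAA or its variants CTTTGAT or CTTTGTA or CTTTGTT. Of 32851 windows of this length, 14.8% held at least 1 of them, and 1 of the 8 windows of these genes did. The windows of Wnt11, Rspo1 and Dkk2 are shown because the first is the one with a match and the others belong to a gene that was lower with Wnt11 in treated females and a gene that was higher in AAD of both sexes. They are read 5′ to 3′ on the plus strand of GRCm38.p6, with the match in capitals, and lie at chr7:98834862-98835111 for the upstream start of Wnt11, chr4:124986180-124986429 for Rspo1 and chr3:132085042-132085291 for Dkk2.
Wnt11: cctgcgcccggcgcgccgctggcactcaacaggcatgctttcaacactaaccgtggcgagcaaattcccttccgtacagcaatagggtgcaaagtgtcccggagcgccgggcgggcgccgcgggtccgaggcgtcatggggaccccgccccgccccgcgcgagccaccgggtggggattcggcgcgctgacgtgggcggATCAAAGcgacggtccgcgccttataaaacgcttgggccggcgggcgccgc
Rspo1: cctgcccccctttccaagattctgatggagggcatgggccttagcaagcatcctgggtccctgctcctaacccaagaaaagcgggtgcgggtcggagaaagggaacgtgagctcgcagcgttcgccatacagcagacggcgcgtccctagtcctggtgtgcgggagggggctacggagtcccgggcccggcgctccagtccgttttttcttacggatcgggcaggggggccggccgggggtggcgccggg
Dkk2: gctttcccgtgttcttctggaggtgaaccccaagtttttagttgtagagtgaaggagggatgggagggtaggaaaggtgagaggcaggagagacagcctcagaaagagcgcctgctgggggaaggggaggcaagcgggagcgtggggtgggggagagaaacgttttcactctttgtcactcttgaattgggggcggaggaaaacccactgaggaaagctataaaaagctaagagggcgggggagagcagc
The match ATCAAAG begins 51 bases before the Wnt11 start and is the reverse complement of CTTTGAT. The other Wnt11 start and the windows of Frzb, Sfrp2, Wif1 and Wnt4 held no match. A match is a description of letters and not a site shown to be used.

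Per kilobase of exon in the GENCODE M21 annotation, Sfrp2 had the highest level of the 10 genes, at 210.4 ± 104.7 CPM per kb (SD over 48 libraries). Frzb at 33.5 ± 21.7, Sfrp1 at 32.4 ± 10.7, Wif1 at 24.1 ± 10.8 and Sfrp4 at 14.2 ± 11.1 CPM per kb (SD, n = 48) followed, and neighbours in this order differed by less than their spread. Rspo1 at 3.77 ± 1.79 and Wnt11 at 1.76 ± 0.778 CPM per kb (SD, n = 48) were lower. Dkk2 at 0.610 ± 0.400, Wnt4 at 0.278 ± 0.187 and Rspo2 at 0.0503 ± 0.0536 CPM per kb (SD, n = 48) were lowest. The order of these genes differed in controls, with Wif1 at 37.6 ± 8.13, Sfrp1 at 28.3 ± 4.30 and Frzb at 13.7 ± 2.50 CPM per kb in MaCon (SD, n = 10). In FeCon Sfrp1 at 28.5 ± 5.88, Wif1 at 27.0 ± 6.00 and Frzb at 22.1 ± 3.36 CPM per kb (SD, n = 10) lay closer together. Sfrp4 at 6.42 ± 0.786 and Rspo1 at 4.40 ± 1.64 CPM per kb in MaCon (SD, n = 10) were close, as they were in FeCon at 7.59 ± 1.84 and 5.19 ± 2.44 (SD, n = 10). Dkk2 was above Wnt4 in the pooled order, but in FeCon Wnt4 at 0.432 ± 0.253 stood above Dkk2 at 0.296 ± 0.127 CPM per kb (SD, n = 10), within their spread. Single libraries held as few as 0 counts of Rspo2 and 3 counts of Wnt4.

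**Figure D1:**
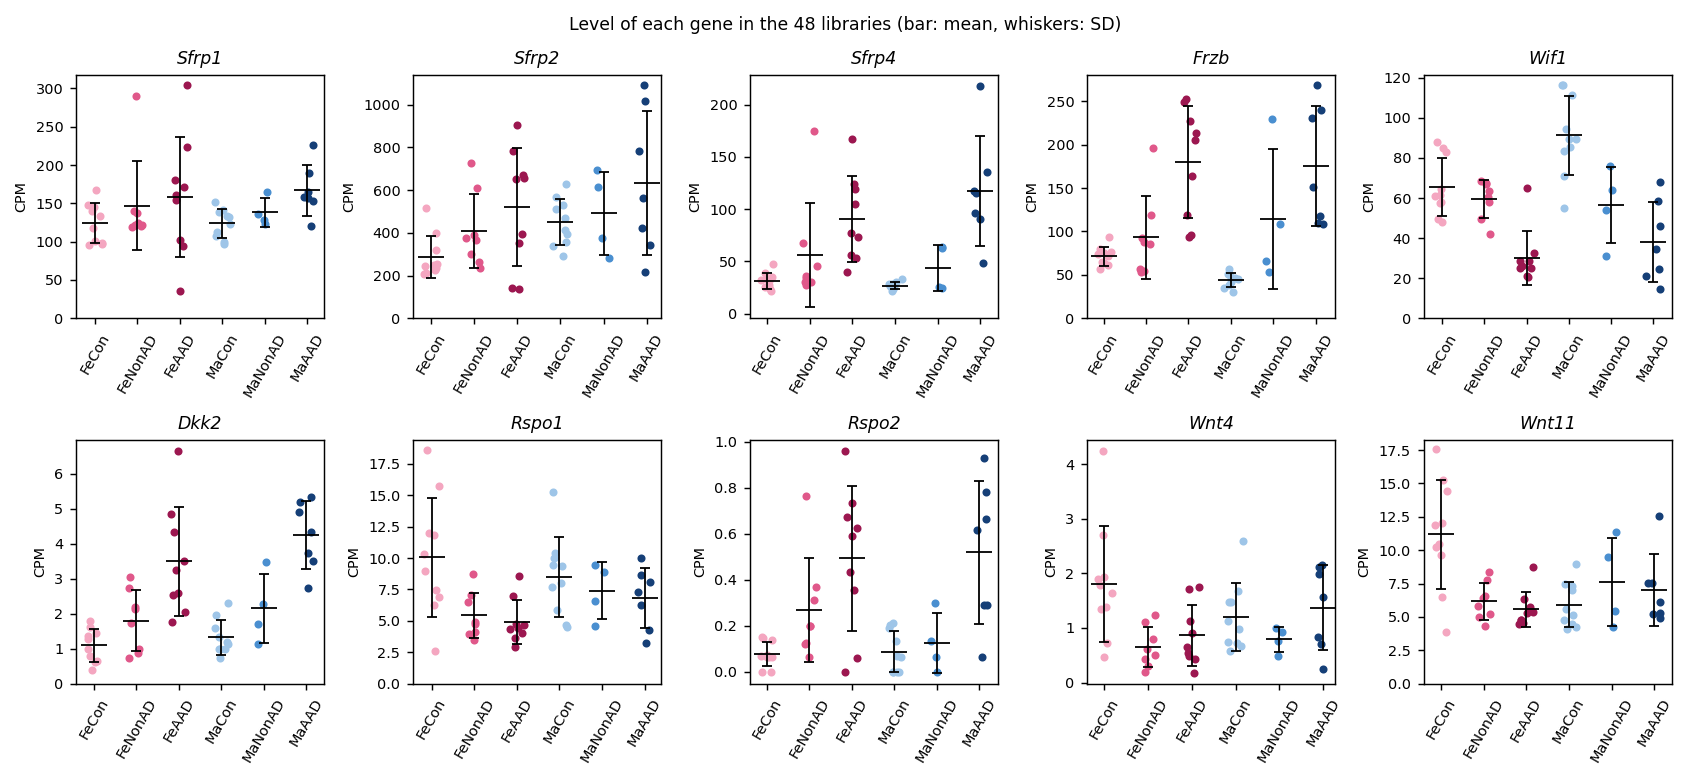
Level of each of the 10 genes in CPM (vertical axes, which differ between panels and start at or just below 0) in the 48 libraries, by group. Points are libraries, bars are means and whiskers are SD. Sfrp4, Frzb and Dkk2 are higher in MaAAD than in every MaCon library, Wif1 is lower in AAD of both sexes, and Wnt11 stands highest in FeCon.

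Between AAD and water, 8 of the 10 genes were called in females and 5 in males. A gene was called where edgeR's quasi-likelihood test gave a Benjamini-Hochberg adjusted p under 0.05 over all genes tested and differed by at least 1 in either direction on the log2 scale, the minimum fold. Over all genes, 12.7% were called between FeAAD and FeCon and 11.4% between MaAAD and MaCon. The 10 genes were chosen with earlier results of these data known, so a count above these shares is no test of the set. Sfrp4, Frzb, Dkk2 and Rspo2 rose and Wif1 fell in both sexes. Rspo1, Wnt4 and Wnt11 were called in females alone, all lower. Macrophage markers moved with these changes, with 6 of 7 called higher in both sexes. Their summed level ranged from 302 to 1449 CPM in FeAAD (median 473) against 129.7 to 316 CPM in FeCon (median 238), and from 414 to 1413 CPM in MaAAD (median 684) against 114 to 303 CPM in MaCon (median 202). Their part in the changes of the 10 genes was not tested. Rspo2 passed the filter on low counts mainly through AAD libraries, where it is high, and without it 7 of 9 genes were called in females and 4 of 9 in males. The median log2 fold change of these 9 genes was 0.35 in females, where that of all genes was 0.001, and 0.43 in males, where that of all genes was -0.03. Each median is the value of Sfrp1, which was not called. Genes were called in both directions in each sex, so the medians describe no shared direction.

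Of Sfrp1, Sfrp2 and Sfrp4, the last was called between AAD and water, in both sexes, as was the related gene Frzb. Sfrp4, a family member also known from bone, ranged from 21.6 to 47.6 CPM in FeCon with a median of 31.7, and from 39.6 to 167 CPM in FeAAD with a median of 77.1. In MaCon it ranged from 21.7 to 32.8 CPM with a median of 26.4, and in MaAAD from 48.1 to 218 CPM with a median of 115. Of the FeAAD libraries 8 of 9 lay above every FeCon library, and in males the 2 groups did not overlap. The log2 fold change was 1.52 ± 0.28 (SE) in females, adjusted p = 1.93e-05, and 2.13 ± 0.30 (SE) in males, adjusted p = 2.52e-07, in edgeR's fit.

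Sfrp1 and Sfrp2 were not called between AAD and water. Sfrp1 had a median of 126 CPM in FeCon (95.5 to 167) and 161 CPM in FeAAD (35.1 to 305), and of 128 CPM in MaCon (97.0 to 152) and 158 CPM in MaAAD (120.0 to 226). FeAAD libraries lay on both sides of the FeCon range, with 4 above it and 2 below it, while 6 of 7 MaAAD libraries lay above every MaCon library. Sfrp1 had a log2 fold change of 0.35 ± 0.20 (SE) in females, edgeR adjusted p = 0.16, and 0.43 ± 0.22 (SE) in males, edgeR adjusted p = 0.118. Sfrp2, the most abundant of the 10, had a median of 246 CPM in FeCon (208 to 519) and 654 CPM in FeAAD (139 to 904), and of 442 CPM in MaCon (294 to 628) and 561 CPM in MaAAD (217 to 1094). Its log2 fold change in females was 0.86 ± 0.29 (SE) with an edgeR adjusted p of 0.012, below the minimum fold, a threshold without which 9 of the 10 genes and 44.4% of all genes passed in this comparison, and 1.01 without FeCon7, which had the highest FeCon level. In males it was 0.49 ± 0.30 (SE), edgeR adjusted p = 0.207. The summed level of adventitial fibroblast markers also spread widely in FeAAD, from 1181 to 5272 CPM, against 3370 to 5014 CPM in FeCon, and its part in the spread of Sfrp1 and Sfrp2 was not tested.

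Frzb, a frizzled-related inhibitor known from cartilage, ranged from 56.6 to 94.0 CPM in FeCon with a median of 72.8, and from 93.6 to 253 CPM in FeAAD with a median of 205. In MaCon it ranged from 30.2 to 56.7 CPM with a median of 45.8, and in MaAAD from 109 to 269 CPM with a median of 151. The lowest FeAAD library and the highest FeCon library were almost level, and in males the groups did not overlap. Its log2 fold change was 1.33 ± 0.23 (SE) in females, edgeR adjusted p = 9.68e-06, and 1.99 ± 0.25 (SE) in males, edgeR adjusted p = 3.86e-08. The difference between the sexes in this response was 0.66 ± 0.34 (SE) on the log2 scale, edgeR adjusted p = 0.346. Cartilage markers moved with Sfrp4 and Frzb: 4 of 5 tested were called higher in MaAAD than in MaCon and 3 of 5 in FeAAD than in FeCon, where 1 was called lower. Their sum ranged from 237 to 590.5 CPM in MaAAD against 120 to 198 CPM in MaCon, and from 173 to 1006 CPM in FeAAD against 114 to 188 CPM in FeCon, and their part in these results was not tested.

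Dkk2 had low levels and rose in both sexes. It ranged from 0.398 to 1.79 CPM in FeCon with a median of 1.13, and from 1.76 to 6.66 CPM in FeAAD with a median of 3.25. In MaCon it ranged from 0.735 to 2.31 CPM with a median of 1.16, and in MaAAD from 2.73 to 5.33 CPM with a median of 4.34. Of the FeAAD libraries 8 of 9 were above every FeCon library, and in males the groups did not overlap. Its log2 fold change was 1.67 ± 0.28 (SE) in females, edgeR adjusted p = 3.57e-06, and 1.67 ± 0.29 (SE) in males, edgeR adjusted p = 8.27e-06. Between MaAAD and MaCon, 6.14% of all genes tested were higher in every MaAAD library than in any MaCon library, as Sfrp4, Frzb and Dkk2 were.

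Wif1 was the inhibitor that fell. It ranged from 48.1 to 88.1 CPM in FeCon with a median of 61.2, and from 20.8 to 64.9 CPM in FeAAD with a median of 25.9. In MaCon it ranged from 55.0 to 116 CPM with a median of 89.4, and in MaAAD from 14.6 to 68.0 CPM with a median of 34.5. In FeAAD 8 of 9 libraries lay below every FeCon library and FeAAD3 alone stood within their range, and in MaAAD 5 of 7 lay below every MaCon library. For Wif1 the log2 fold change was -1.11 ± 0.21 (SE) in females, edgeR adjusted p = 3.06e-05, and -1.26 ± 0.23 (SE) in males, edgeR adjusted p = 2.47e-05. Smooth muscle markers were lower as well, with 4 of 8 called between FeAAD and FeCon and 5 of 8 between MaAAD and MaCon, median log2 fold changes of -1.01 and -1.06, and their part in the lower Wif1 level was not tested.

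Rspo2 was close to absent in controls, with at most 2 counts in a FeCon library and at most 3 in a MaCon library. The 10 FeCon libraries held 11 counts in all and the 9 FeAAD libraries 73, a ratio of 6.48 after scaling to library size, with an exact 95% interval of 3.42 to 13.5 for counting error only. The 10 MaCon libraries held 13 counts and the 7 MaAAD libraries 60, a ratio of 6.00 with an interval of 3.25 to 11.9. More than 3 counts were found in 7 of 9 FeAAD and 6 of 7 MaAAD libraries, while FeAAD8 had none. The filter asked for 0.638 CPM in at least 4 libraries, which Rspo2 reached in 3 FeAAD, 4 MaAAD and 1 other library, so it was tested because it was high in AAD and its calls are no independent support. These were at log2 fold changes of 2.57 ± 0.58 (SE), edgeR adjusted p = 0.000304, and 2.48 ± 0.58 (SE), edgeR adjusted p = 0.000724.

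**Figure D2:**
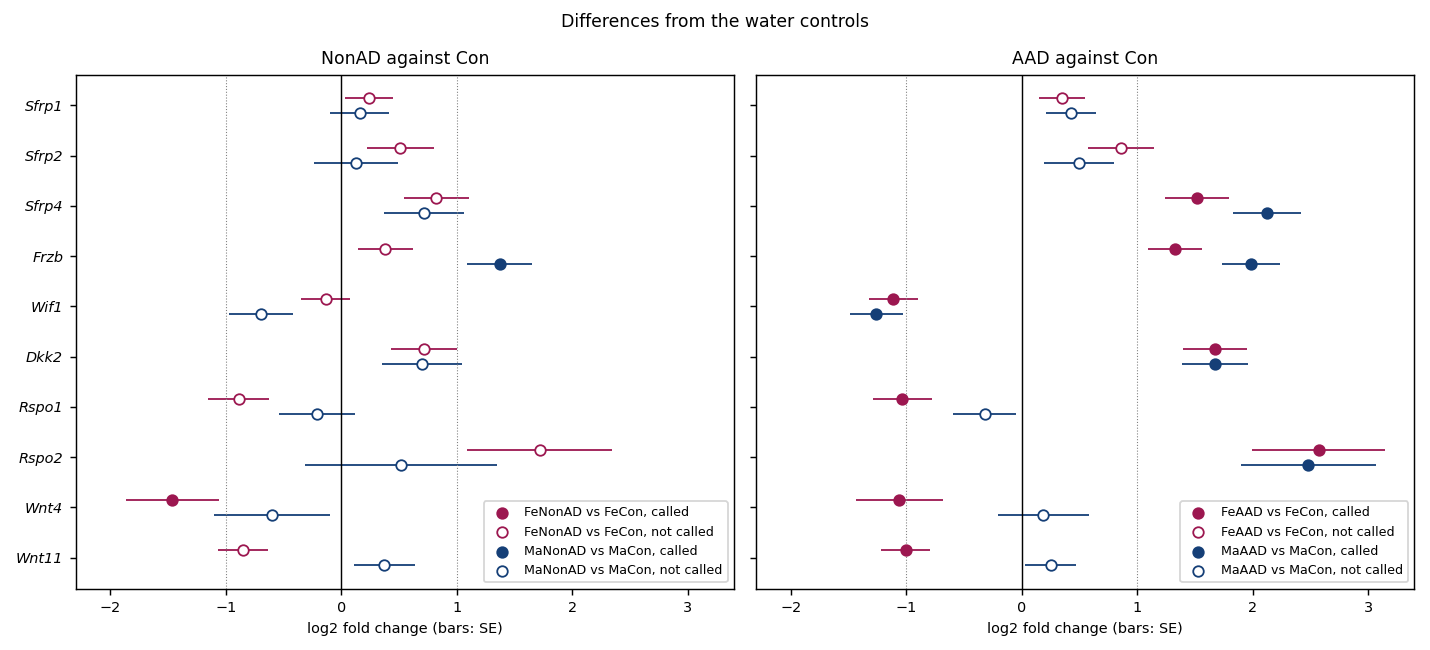
Log2 fold change against the sex-matched water controls (horizontal axes) of the 10 genes in NonAD (left) and AAD (right), females in red and males in blue. Bars are SE, filled points are called genes, and dotted lines mark the minimum fold. In AAD 5 genes are called in both sexes, and Rspo1, Wnt4 and Wnt11 in females alone.

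Rspo1, Wnt4 and Wnt11 were lower in treated females. Rspo1 ranged from 2.58 to 18.6 CPM in FeCon with a median of 9.62, from 3.49 to 8.71 CPM in FeNonAD with a median of 4.83, and from 2.90 to 8.55 CPM in FeAAD with a median of 4.44. Every treated library lay within the wide FeCon range, because FeCon2 was as low as any of them. The log2 fold change was -1.03 ± 0.26 (SE) in FeAAD, edgeR adjusted p = 0.000999, and -0.89 ± 0.27 (SE) in FeNonAD, edgeR adjusted p = 0.0187, the latter below the minimum fold. In males Rspo1 had medians of 8.69 CPM in MaCon (4.54 to 15.2) and 7.29 CPM in MaAAD (3.26 to 9.99), and the 4 MaNonAD libraries had 4.55, 8.91, 6.57 and 9.49 CPM. The male log2 fold change in AAD was -0.32 ± 0.27 (SE), edgeR adjusted p = 0.377, and the difference between the sexes was 0.71 ± 0.37 (SE), edgeR adjusted p = 0.349.

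Wnt4 ranged from 0.464 to 4.24 CPM in FeCon with a median of 1.71, from 0.200 to 1.24 CPM in FeNonAD with a median of 0.565, and from 0.183 to 1.75 CPM in FeAAD with a median of 0.647. FeCon3 was the highest FeCon library and FeCon2 the lowest, and 3 FeNonAD and 2 FeAAD libraries lay below all FeCon libraries. Its log2 fold change was -1.46 ± 0.40 (SE) in FeNonAD, edgeR adjusted p = 0.0108, and -1.06 ± 0.38 (SE) in FeAAD, edgeR adjusted p = 0.0192. In males it was -0.60 ± 0.50 (SE) in MaNonAD, edgeR adjusted p = 0.695, and 0.19 ± 0.39 (SE) in MaAAD, edgeR adjusted p = 0.746. Male medians were 1.06 CPM in MaCon (0.577 to 2.59) and 1.57 CPM in MaAAD (0.246 to 2.16), with 0.479, 0.764, 0.920 and 1.00 CPM in MaNonAD. The difference between the sexes in the AAD response was 1.25 ± 0.54 (SE), edgeR adjusted p = 0.245. The deposited values of Wnt4 were not whole numbers in 4 libraries.

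Wnt11 was the one gene of the 10 whose response to BAPN with a lesion differed between the sexes by the test of the difference itself. It ranged from 3.84 to 17.6 CPM in FeCon with a median of 11.2, from 4.34 to 8.38 CPM in FeNonAD with a median of 6.11, and from 4.47 to 8.72 CPM in FeAAD with a median of 5.30. In males it ranged from 4.07 to 9.00 CPM in MaCon with a median of 5.37, and from 4.89 to 12.6 CPM in MaAAD with a median of 6.08, and the MaNonAD libraries had 5.45, 11.3, 9.46 and 4.28 CPM. The medians of treated females were close to that of MaCon, a difference that was not tested, and the FeCon range enclosed them because of FeCon2. The log2 fold change was -1.01 ± 0.21 (SE) in FeAAD, edgeR adjusted p = 0.000121, and 0.25 ± 0.22 (SE) in MaAAD, edgeR adjusted p = 0.401. The difference between these responses was 1.26 ± 0.30 (SE), edgeR adjusted p = 0.0236, where 0.520% of all genes were called in this contrast. For NonAD the female response was -0.86 ± 0.22 (SE), edgeR adjusted p = 0.00626, the male 0.37 ± 0.26 (SE), edgeR adjusted p = 0.629, and their difference 1.23 ± 0.34 (SE), edgeR adjusted p = 0.0812. That difference was called without FeCon2, at 1.33 with adjusted p = 0.0151, and without MaCon5, at 1.34 with adjusted p = 0.0398.

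The calls of Rspo1, Wnt4 and Wnt11 between FeAAD and FeCon stood near the minimum fold. Rspo1 lost its call in 6 fits that each left out 1 library (FeCon3, FeCon6, FeCon7, FeCon9, FeAAD5 or FeAAD9), with log2 fold changes of -0.999 to -0.89 and adjusted p of at most 0.00371. Wnt4 lost it without FeCon3 (log2 fold change of -0.82, adjusted p = 0.0659) and, with adjusted p of at most 0.042, without FeCon9, FeAAD1, FeAAD2, FeAAD3 or FeAAD8 (-0.99 to -0.93). Wnt11 lost it without FeCon3, FeCon5, FeCon7, FeCon9, FeCon10, FeAAD1, FeAAD2, FeAAD3, FeAAD5, FeAAD7 or FeAAD9, with log2 fold changes of -0.99 to -0.90 and adjusted p of at most 0.000647. The number of genes called was 5 without FeCon3 or without FeCon9, in place of 8. The sex difference of Wnt11 in the AAD response remained called whichever library was left out, with values of 1.06 to 1.37 and adjusted p of at most 0.0442.

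Mesothelial markers were also lower in treated females than in FeCon. The sum of 6 markers ranged from 50.9 to 287 CPM in FeCon with a median of 144, from 53.5 to 156 CPM in FeNonAD with a median of 86.3, and from 39.8 to 118 CPM in FeAAD with a median of 74.3. In males the medians were 124 CPM in MaCon (57.3 to 236), 102 CPM in MaNonAD (64.1 to 189) and 119.8 CPM in MaAAD (50.7 to 192). The median log2 fold change of these markers was -0.13 in MaNonAD and 0.24 in MaAAD. Rspo1 had -0.21 and -0.32 there, Wnt4 -0.60 and 0.19, and Wnt11 0.37 and 0.25. All 6 markers were lower in FeAAD than in FeCon, with a median log2 fold change of -0.85, and 1 of them, Upk3b, was called at -1.24 ± 0.31 (SE), edgeR adjusted p = 0.00104. In the test of the difference between the sexes in the AAD response all 6 were above 0, with a median of 1.07 and edgeR adjusted p from 0.0757 to 0.475. FeCon2 and FeCon3 had the lowest and the highest sums of FeCon and also the lowest and the highest levels of Rspo1 and Wnt4 there. For Wnt11 FeCon2 was the lowest and FeCon9 the highest. Heart muscle markers had median log2 fold changes of -1.07 in FeNonAD and -1.37 in FeAAD, where 3 of 7 were called lower. In MaNonAD and MaAAD they had -0.78 and 0.34, and in the sex difference of the AAD response 1.61. Skeletal muscle markers had -1.01 in FeNonAD and -1.09 in FeAAD, and 0.12 in MaNonAD and -0.48 in MaAAD. The part of mesothelium, heart muscle or skeletal muscle in the lower levels of Rspo1, Wnt4 and Wnt11 was not tested.

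**Figure D3:**
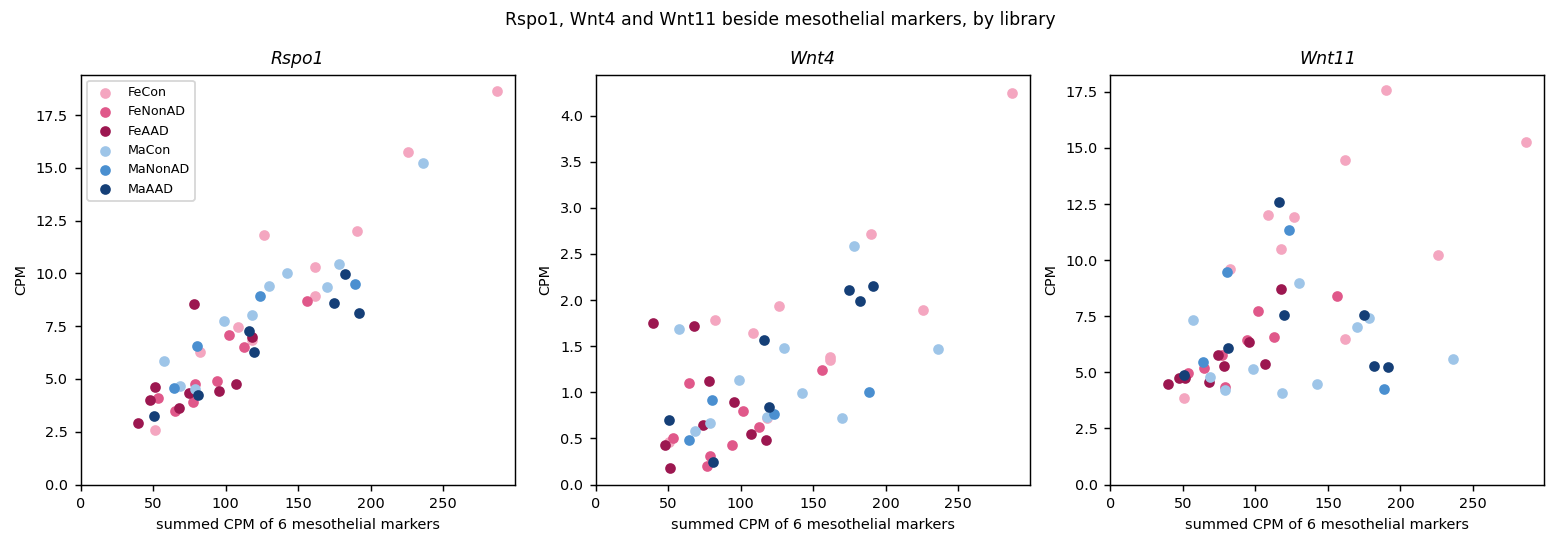
Level of Rspo1, Wnt4 and Wnt11 (vertical axes, CPM) against the summed level of 6 mesothelial markers (horizontal axes, CPM) in the 48 libraries, coloured by group. For Rspo1 the FeCon library with the highest sum, at 287 CPM, has the highest level, at 18.6 CPM, and the FeCon library with the lowest sum, at 50.9 CPM, has the lowest, at 2.58 CPM.

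In treated mice without a lesion few of the genes were called. In FeNonAD against FeCon 1 of 10 was called, where 2.75% of all genes were, and it was Wnt4, described above. DESeq2 called 2, Wnt4 and Rspo2 (1.81 on the log2 scale, adjusted p = 0.0487), and 3.15% of all genes. Rspo1 and Wnt11, lower, and Sfrp4, higher, had adjusted p under 0.05 but not the minimum fold, so that 4 of 10 passed by adjusted p alone, as 14.5% of all genes did. Sfrp4 had a median of 35.2 CPM in FeNonAD (27.9 to 175) and a log2 fold change of 0.82 ± 0.28 (SE), edgeR adjusted p = 0.0428, with FeNonAD8 alone above 68.0 CPM, and without FeNonAD8 the value was 0.30 with adjusted p = 0.442. Rspo2 held 34 counts in the 8 FeNonAD libraries, 12 of them in FeNonAD8, and its ratio to FeCon was 3.52 with an exact 95% interval of 1.74 to 7.71 for counting error only. Its log2 fold change of 1.72 ± 0.63 (SE) had an edgeR adjusted p of 0.0573. Without FeNonAD1 it was called, at 1.86 with adjusted p = 0.0408, and Rspo1 was called at -1.01 without FeCon2 and at -1.02 without FeNonAD7.

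In MaNonAD against MaCon 1 of 10 genes was called, where 0.478% of all genes were. This was Frzb, with 229, 53.0, 109 and 65.8 CPM in the MaNonAD libraries against 30.2 to 56.7 CPM in MaCon. Of the 4 libraries 3 lay above every MaCon library, and MaNonAD1 had about the level of the higher MaAAD libraries. The log2 fold change was 1.37 ± 0.28 (SE), edgeR adjusted p = 0.00764, and without MaNonAD1 it was 0.78 with adjusted p = 0.635. MaNonAD1 was also the highest of the 4 for Sfrp2, Sfrp4, Dkk2 and Rspo2 and the lowest for Wif1, and had the highest cartilage marker sum of the group, 396 CPM, and the lowest smooth muscle sum, 20854 CPM. Wif1 was at 31.3, 53.8, 64.0 and 76.0 CPM in MaNonAD, with a log2 fold change of -0.70 ± 0.28 (SE), edgeR adjusted p = 0.264. In FeNonAD the log2 fold change of Frzb was 0.38 ± 0.24 (SE), edgeR adjusted p = 0.298, and the difference between the sexes was 0.99 ± 0.38 (SE), edgeR adjusted p = 0.241.

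Between AAD and NonAD 0 of the 10 genes were called in either sex by edgeR, where 7.04% of all genes were called in females and 0.353% in males. At an unadjusted p under 0.05 there were 4 in females, where 32.1% of all genes were, and 4 in males, where 18.7% were. DESeq2 called 0 in females and 1 in males, Sfrp4, where it called 6.87% and 3.54% of all genes. In females the log2 fold changes were -0.98 ± 0.22 (SE) for Wif1, adjusted p = 0.00128, 0.95 ± 0.25 (SE) for Frzb, adjusted p = 0.00524, and 0.96 ± 0.29 (SE) for Dkk2, adjusted p = 0.0154, all just under the minimum fold, and 18.2% of all genes passed by adjusted p alone. Of the FeAAD libraries 8 of 9 lay below every FeNonAD library in Wif1 and 5 of 9 above every one in Frzb and in Dkk2. Without FeNonAD8, which was the highest FeNonAD library for Sfrp4, Frzb and Dkk2, 4 genes were called: Sfrp4 at 1.22 (adjusted p = 0.000389), Frzb at 1.20 (adjusted p = 0.000276), Dkk2 and Wif1. Without FeAAD3 these were 3, Frzb, Wif1 and Dkk2, and without FeNonAD3 they were 2, Wif1 and Dkk2. Leaving out FeNonAD2, FeNonAD6, FeAAD2, FeAAD4, FeAAD5, FeAAD8 or FeAAD9 gave 1. The shares of all genes above belong to the fit of all libraries. Those of the fits without a library are not given, so these counts are not set against them. In males Sfrp4 had 63.6, 24.8, 62.7 and 25.3 CPM in MaNonAD, below 6 of 7 MaAAD libraries, and a log2 fold change of 1.41 ± 0.40 (SE), edgeR adjusted p = 0.053. It was called without MaNonAD1 (1.64), MaAAD1 (1.36), MaAAD2 (1.55) or MaAAD4 (1.41), and without MaNonAD1 Frzb was called too, at 1.21 with adjusted p = 0.0371.

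Between control mice of the 2 sexes 0 of the 10 genes were called by edgeR or by DESeq2, where edgeR called 1.51% and DESeq2 1.79% of all genes. An unadjusted p under 0.05 was found for 4 of the 10 and for 29.1% of all genes. Wnt11 was lower in MaCon than in FeCon by a log2 fold change of -0.92 ± 0.20 (SE), edgeR adjusted p = 0.00183, and Frzb by -0.70 ± 0.23 (SE), edgeR adjusted p = 0.0332, where 14.3% of all genes passed by adjusted p alone. Wnt11 was called without FeCon2 at -1.02 and without MaCon5 at -1.01, the lowest and the highest libraries of their groups. Between MaNonAD and FeNonAD and between MaAAD and FeAAD 0 genes were called by edgeR or DESeq2 and 0 had an unadjusted p under 0.05, where edgeR called 0.0485% and 0.0693% of all genes, DESeq2 0.0376% and 0.0537%, and 6.47% and 2.22% had such a p. The step from NonAD to AAD differed between the sexes for 0 of the 10 genes by edgeR, DESeq2 or unadjusted p, and over all genes edgeR called 0 of 14431 in that contrast, DESeq2 0.00537%, and 1.04% had an unadjusted p under 0.05. In the NonAD response 0 were called by edgeR, where 0.298% of all genes were, 2 had an unadjusted p under 0.05, as 12.1% of all genes did, and DESeq2 called 1, Wnt11, and 0.642% of all genes.

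The other genes of the pathway were taken from 9 lists of 90 symbols, of which 89 were in the table and 73 were tested. Over the 6 comparisons within a sex, 9 of the 73 were called at least once, 6 higher and 3 lower. The share of all genes called at least once is not given, so this count is not set against it. Between FeAAD and FeCon 3 were called higher and 1 lower, 5.48% of the 73 against 12.7% of all genes, and between MaAAD and MaCon 6 higher and 2 lower, 11.0% against 11.4%. Without Lgr5 and Celsr3, which would not have passed the filter without AAD libraries, the shares were 4.23% and 8.45% of 71 genes. Such genes were not left out of the shares of all genes, so these are not set against those. In FeNonAD 1 was called lower than in FeCon, 1.37% against 2.75% of all genes, and in FeAAD 3 higher than in FeNonAD, 4.11% against 7.04%, and 2 without Lgr5. DESeq2 called 3 of the 73 between FeNonAD and FeCon, where it called 3.15% of all genes. Between FeAAD and FeNonAD it called 3, and 6.87% of all genes. In MaNonAD against MaCon and MaAAD against MaNonAD 0 were called by edgeR and by DESeq2, while 7 and 13 had an unadjusted p under 0.05, as 12.0% and 18.7% of all genes did.

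Among R-spondin receptors, Lgr5, a stem cell marker of the gut, had a median of 0.168 CPM in FeCon (0 to 0.328) and 3.08 CPM in FeAAD (0.186 to 11.9), and of 0.204 CPM in MaCon (0 to 0.398) and 2.22 CPM in MaAAD (0.815 to 8.23). The 2 male groups did not overlap, as was so in this direction for 6.14% of all genes. Lgr5 reached the minimum of the filter in 7 FeAAD, 7 MaAAD and 3 other libraries, fewer than the 4 needed without AAD, so its test too depended on the groups where it was high. It was called at log2 fold changes of 4.57 ± 0.73 (SE), edgeR adjusted p = 2e-06, and 3.91 ± 0.74 (SE), edgeR adjusted p = 3.83e-05. Lgr5 was also called between FeAAD and FeNonAD, at 2.45 ± 0.67 (SE), edgeR adjusted p = 0.0079. The more abundant receptors had negative values. Lgr6, with a mean of 352 CPM over the 48 libraries, had log2 fold changes of -0.72 ± 0.16 (SE) in FeAAD, edgeR adjusted p = 0.000313, and -0.58 ± 0.17 (SE) in MaAAD, edgeR adjusted p = 0.00732, both below the minimum fold. Lgr4, with a mean of 28.6 CPM, had -0.93 ± 0.13 (SE) in FeAAD, edgeR adjusted p = 2.88e-07, and -0.30 ± 0.14 (SE) in MaAAD, edgeR adjusted p = 0.0958.

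Among other ligands and inhibitors, Wnt7b fell in FeNonAD by 1.44 and in FeAAD by 1.89 on the log2 scale, with edgeR adjusted p of 0.022 and 0.000447, at medians of 0.843 CPM in FeCon, 0.307 in FeNonAD and 0.240 in FeAAD. In MaAAD its log2 fold change was -0.51 ± 0.44 (SE), edgeR adjusted p = 0.383. FeCon2 was the lowest and FeCon3 the highest FeCon library for Wnt7b, and FeNonAD7 the highest of FeNonAD, as for the mesothelial sum, whose part in the lower Wnt7b level was not tested. Sost, an LRP-binding inhibitor known from bone, had a mean of 1266 CPM over the 48 libraries, the highest of the other modulators listed, and fell in MaAAD to a median of 732 CPM (362 to 1105) from 1914 CPM in MaCon (1445 to 3056), groups that did not overlap, as was so in this direction for 2.77% of all genes. Its log2 fold change was -1.58 ± 0.29 (SE) in MaAAD, edgeR adjusted p = 2.1e-05, and -0.72 ± 0.26 (SE) in FeAAD, edgeR adjusted p = 0.0199, below the minimum fold. The smooth muscle sums given above were lower in AAD as well, and FeAAD5 was the lowest FeAAD library for Sost, at 128 CPM, and for that sum, at 13943 CPM. In MaAAD, where Sost was called, MaAAD7 was lowest for Sost, at 362 CPM, and MaAAD1 for the sum, at 11833 CPM. MaAAD2 was highest for each. The part of smooth muscle in the lower Sost level was not tested. Wnt5a and Wnt9a, the most abundant other ligands, were not called in any of the 6 comparisons, with AAD values of 0.14 ± 0.19 and 0.01 ± 0.21 (SE) for Wnt5a and -0.72 ± 0.14 and -0.44 ± 0.15 (SE) for Wnt9a in females and males. Dkk3, a Dickkopf family member, had -0.18 ± 0.15 and -0.13 ± 0.16 (SE).

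Of 6 feedback and target genes tested, 1 was called higher in FeAAD than in FeCon, and 2 were called higher and 1 lower in MaAAD than in MaCon. Between FeAAD and FeNonAD 2 were called higher. Ccnd1, the cyclin D1 gene and a target shared with many growth signals, rose by 1.55 ± 0.17 (SE) in FeAAD, edgeR adjusted p = 9.87e-10, and 1.13 ± 0.18 (SE) in MaAAD, edgeR adjusted p = 1.68e-06, on the log2 scale. Myc, another such target, rose by 1.34 ± 0.30 (SE) in MaAAD, edgeR adjusted p = 0.000376, and had 0.94 ± 0.28 (SE) in FeAAD, edgeR adjusted p = 0.00554. Nkd1, a feedback inhibitor, fell by 1.02 in MaAAD on the log2 scale, edgeR adjusted p = 0.000104, and had -0.96 ± 0.19 (SE) in FeAAD, edgeR adjusted p = 5.33e-05. Its lowest and highest libraries in MaCon, MaNonAD and FeNonAD were those of the smooth muscle sum, as was its lowest in FeAAD, and the part of smooth muscle was not tested. Markers of dividing cells rose beside Ccnd1 and Myc, with 4 of 4 called in both sexes and median sums of 113 CPM in FeAAD against 7.47 CPM in FeCon and 89.8 CPM in MaAAD against 8.17 CPM in MaCon, and their part was not tested. Ctnnb1, the β-catenin gene, had -0.06 ± 0.09 (SE) in FeAAD, edgeR adjusted p = 0.614, and -0.10 ± 0.10 (SE) in MaAAD, edgeR adjusted p = 0.433.

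Of the receptors and the polarity branch, Ptk7, a co-receptor for β-catenin-independent signals, rose in both sexes, by 1.46 ± 0.27 (SE) in FeAAD, edgeR adjusted p = 1.95e-05, and 1.303 ± 0.282 (SE) in MaAAD, edgeR adjusted p = 0.000253. The polarity genes Vangl2 and Celsr3 rose in MaAAD, by 1.26 ± 0.19 (SE), edgeR adjusted p = 7.57e-07, and 1.91 ± 0.52 (SE), edgeR adjusted p = 0.00335. In FeAAD they had 0.76 ± 0.18 (SE), edgeR adjusted p = 0.000491, below the minimum fold, and 1.02 ± 0.46 (SE), edgeR adjusted p = 0.0696. Celsr3 reached the minimum of the filter in 5 AAD and 2 other libraries, and its test depended on AAD as that of Lgr5 did. The most abundant genes of the remaining lists, Fzd1, Fzd7, Wls, Porcn, Csnk1a1, Bcl9l, Pygo2, Apcdd1, Daam1 and Prickle1, were not called in any of the 6 comparisons, and their AAD log2 fold changes lay between -0.70 for Porcn in females and 0.28 for Wls in males.

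**Figure D4:**
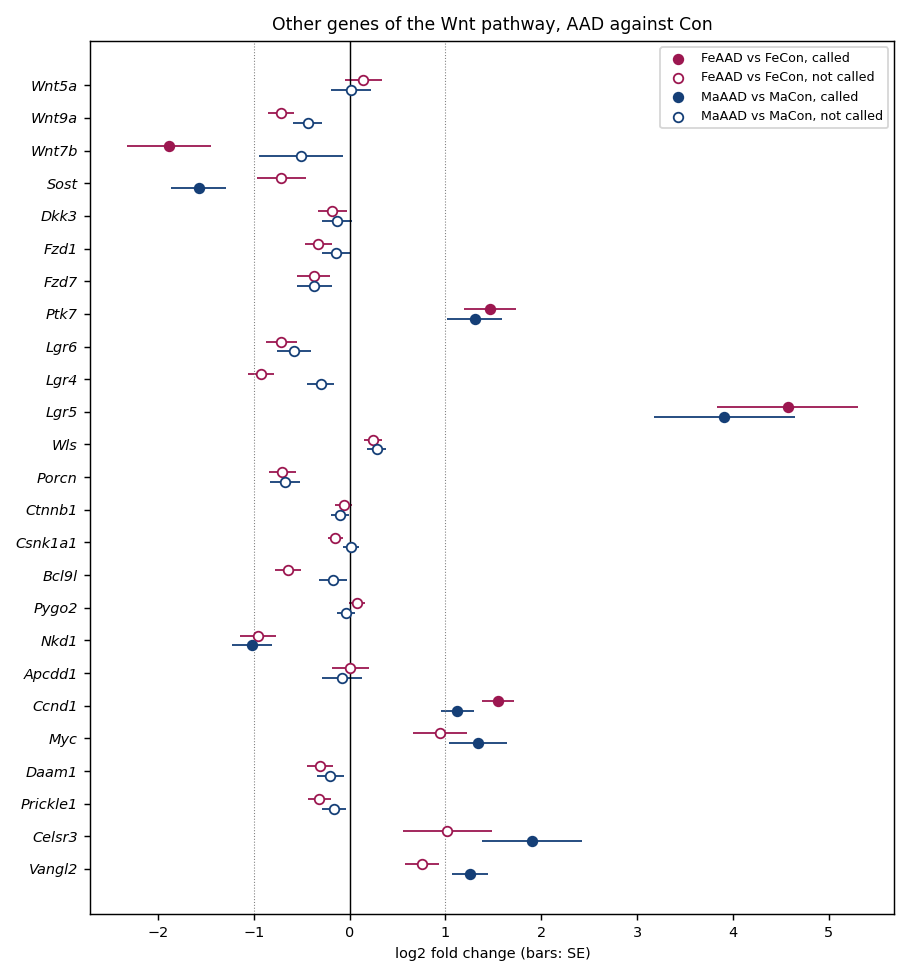
Log2 fold change between AAD and water (horizontal axis) of 25 other genes of the Wnt pathway, females in red and males in blue, in the order of their lists. Bars are SE, filled points are called genes and dotted lines mark the minimum fold. Lgr5 has the largest rise of the genes drawn, 4.57 in females and 3.91 in males, and most of the others lie between the dotted lines.

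The genes whose levels were most like those of each of the 10 over the 48 libraries were sought among 13710 tested genes averaging at least 10 counts per library, by Pearson's r of log2(CPM + 1). These libraries share groups, so r after subtraction of group means is given beside each, and both are descriptions. Sfrp1 was closest to C1s1 (r = 0.855, and 0.841 within groups), Igsf10 and Svep1, and Sfrp2 to Tmem44 (0.823, and 0.819 within groups), Ece2 and C1qtnf7. Sfrp4 was closest to P4ha3 (0.911, and 0.760 within groups), Hhat and Ctsk, and Frzb to Sdc3 (0.923, and 0.821 within groups), Farp1 and Gpr176. Wif1 was closest to Sh3bgr (0.922, and 0.802 within groups), Inpp4a and Pcp4l1, and Dkk2 to Ccnd1 (0.870, and 0.631 within groups), Arsj and Cthrc1. For Rspo1 the list was Tmem151a (0.888, and 0.885 within groups), Cyp2s1 and the mesothelial marker Msln (0.877, and 0.866 within groups). Rspo2 was closest to Thbs2 (0.849, and 0.708 within groups), Col11a1 and Ddah1, Wnt4 to Prr15l (0.738, and 0.708 within groups), Krt8 and Tbcc, and Wnt11 to Pla2g12a (0.763, and 0.762 within groups), Por and Egln2. Among pairs of the 10 genes, the highest r within groups was 0.659 for Sfrp4 and Frzb, which was 0.852 over all libraries, and Rspo1 had 0.559 with Wnt4 and 0.511 with Wnt11.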

How the data were processed

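RNA of 48 thoracic aortas was measured. According to the study's methods, column-purified RNA was made into strand-specific libraries from enriched mRNA and sequenced on a DNA NanoBall platform, with 1 column per mouse in the deposited table. The authors deposited expected counts per gene, not scaled to library size. The submitters' processing notes name Bowtie2, RSEM 1.3.1 and the GRCm39 build, and 4.99% of values were not whole, as RSEM can split reads between genes. All values were rounded to whole counts. Groups came from the sample titles and columns were matched by name. Library totals were 13548003 to 17281262 counts. Intervals were taken on counts summed over the libraries of a group, so they cover counting error only and leave out the spread between mice. The reads had no molecular identifiers.

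Counts were tested with edgeR 4.0.16 in R 4.3.3 (filterByExpr, TMM, robust quasi-likelihood test, Benjamini-Hochberg adjustment over 14431 genes), in 1 fit of all 48 libraries with 6 group means and 12 contrasts. Calls needed an adjusted p under 0.05 and a change of 1 or more on the log2 scale, up or down. The SE of a log2 fold change was derived from the F statistic. CPM used TMM library sizes. The 10 genes, the Wnt lists and the marker lists were chosen with earlier results of these data known. Other genes are named where they had one of the 2 highest mean CPM of their list, were called in a comparison within a sex, or were among the 3 genes most like one of the 10. Upk3b and the other marker genes were named after their values were seen. Results were recomputed with DESeq2 1.42.0, with its size factors in edgeR, for the compared groups only, without the filter, with replicate numbers as a block, without robust estimation, by adjusted p alone and without each library in turn. Shares of all genes called by DESeq2 are of the genes to which it gave an adjusted p. Coordinates and exon lengths were from GENCODE M21 on GRCm38, matched by symbol, and not from the build of the files. Promoter windows were from RefSeq. Calculations used Python 3.11.15, numpy 2.4.6, pandas 2.3.3 and scipy 1.17.1, and figures matplotlib 3.10.9. The tests were tried on simulated counts first. Wnt3 is not analysed here. RNA of AAD mice came from lesioned segments, so lesion and sampled segment cannot be told apart.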

Additional observations from a re-analysis of the deposited data

Results flagged for a closer look

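Of 60 sets of values, 1 for each of the 10 genes in each group, 7 had a library whose distance to the nearest other library was large for the range of its group (Dixon's 95% critical value), and chance gives about 1 in 20. FeNonAD8 accounted for 4 of them, with 291 CPM of Sfrp1 where the other FeNonAD libraries had 119.6 to 139 CPM, 175 CPM of Sfrp4 where they had 27.9 to 68.0 CPM, 196 CPM of Frzb where they had 52.8 to 119 CPM, and 0.764 CPM of Rspo2 where they had 0.0620 to 0.367 CPM. FeNonAD8 also had the highest FeNonAD sums of adventitial fibroblast (5115 CPM), macrophage (475 CPM) and cartilage (418 CPM) markers and the lowest of smooth muscle (25729 CPM), mesothelial (53.5 CPM) and adipocyte (239 CPM) markers, and their part in its levels was not tested. FeAAD3 had 64.9 CPM of Wif1 and the other FeAAD libraries 20.8 to 32.5 CPM. FeAAD8 had 8.72 CPM of Wnt11, against 4.47 to 6.35 CPM in the rest of its group. MaAAD1 had 12.6 CPM of Wnt11, against 4.89 to 7.57 CPM.

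The AAD response of Wnt11 differed between the sexes in the test of the difference itself, by 1.26 on the log2 scale, from -1.01 in females and 0.25 in males. It was called under each of the alternatives run, with adjusted p from 0.00603 with DESeq2 to 0.0477 with the replicate number as a block.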

How the results depend on the processing

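The number of the 10 genes called moved by more than 1.5 times with the tool or the threshold in 5 comparisons, and between FeAAD and FeCon from 8 to 9 by adjusted p alone. Between FeNonAD and FeCon it was 1, and 2 with DESeq2 and 4 by adjusted p alone. Between FeAAD and FeNonAD it was 0, and 3 by adjusted p alone, and between MaAAD and MaNonAD it was 0, and 1 with DESeq2. Between MaCon and FeCon it was 0, and 2 by adjusted p alone, and for the sex difference in the NonAD response it was 0, and 1 with DESeq2. Of the other Wnt genes 9 were called at least once, and 14 without the filter on low counts and 43 by adjusted p alone. No share of all genes called at least once is given beside these counts. DESeq2's size factors in edgeR and the fit without robust estimation moved none of these counts by more than 1.5 times.

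Replicate numbers did not pair the libraries: in no comparison did every pair of equal numbers correlate above 0.1, and in FeNonAD against FeCon 3 of 8 pairs did. With the replicate number as a block, 1 gene, Wif1, was called between FeAAD and FeNonAD at -1.07, Wnt11 between FeAAD and FeCon was at -0.94 and no longer called, the sex difference in the NonAD response of Sfrp4 was 0.14 in place of -0.10, that in the AAD response of Dkk2 was -0.018 in place of 0.002, and no other call on the 10 genes changed. The cause was not tested. Wnt11 between FeAAD and FeCon was also not called in the fit of these groups only (-0.99) or without the filter (adjusted p = 0.000202, just under the minimum fold). Of all genes, 51 were called between MaAAD and MaNonAD, and 518 with DESeq2, 168 with its size factors in edgeR, 99 without robust estimation and 0 without the filter, with the block or in the fit of these groups only, and between MaNonAD and MaCon 69 were called, and 141 in the fit of these groups only. For the sex difference the calls were 43 in the NonAD and 75 in the AAD response, and 94 and 129 with DESeq2, and between MaAAD and FeAAD 10, and 5 with the block or these groups only. By adjusted p alone, which sets no minimum fold, 2096 in place of 397 genes passed between FeNonAD and FeCon, 6410 in place of 1836 between FeAAD and FeCon, 5050 in place of 1639 between MaAAD and MaCon, 2625 in place of 1016 between FeAAD and FeNonAD, 2060 in place of 218 between MaCon and FeCon, and 194 in place of 75 for the sex difference in the AAD response.

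Leaving out each library in turn gave 1 to 2 of the 10 genes called in FeNonAD against FeCon, 0 to 1 in MaNonAD against MaCon, 5 to 8 in FeAAD against FeCon, 5 to 5 in MaAAD against MaCon, 0 to 4 in FeAAD against FeNonAD, 0 to 2 in MaAAD against MaNonAD, 0 to 1 in MaCon against FeCon and 0 to 1 for the sex difference in the NonAD response, with 8 to 10 of the other Wnt genes. The share of all genes called in each of these fits is not given, so the counts are not set against it. Some log2 fold changes that were not called changed sign. In MaNonAD against MaCon these were Sfrp2 (-0.085 to 0.35) and Rspo2 (-0.36 to 0.93), in FeAAD against FeNonAD Sfrp1 (-0.063 to 0.325), in MaAAD against MaNonAD Rspo1 (-0.29 to 0.031) and Wnt11 (-0.34 to 0.14), and in MaCon against FeCon Sfrp1 (-0.050 to 0.046) and Rspo2 (-0.054 to 0.31). In the sex difference of the NonAD response they were Sfrp1 (-0.18 to 0.13), Sfrp4 (-0.34 to 0.42) and Dkk2 (-0.35 to 0.21), and in that of the AAD response Sfrp1 (-0.053 to 0.28), Wif1 (-0.35 to 0.077), Dkk2 (-0.085 to 0.20) and Rspo2 (-0.29 to 0.15). None of these values was called.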
